A study of Mus musculus with 48 samples.

Results

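The genes described here are 10 genes of the muscle-forming lineage: the paired-box factors Pax3 and Pax7, the myogenic regulatory factors Myf5, Myod1, Myog and Myf6, the embryonic and perinatal myosin heavy chains Myh3 and Myh8, the fusion protein gene Mymk and the fetal acetylcholine receptor subunit gene Chrng. They were chosen by symbol through their Ensembl identifiers, and all 10 were among the 36854 genes measured. Messenger RNA was sequenced in bulk from 48 mouse sarcomas of the 129/SvJae strain background, 32 of them primary tumours and 16 allografts, collected 3 days after treatment. Primary tumours followed an injection of Adeno-Cre, a virus that removes floxed p53 alleles, into the gastrocnemius (calf) muscle of p53FL/FL mice aged 6 to 10 weeks, and then of the carcinogen MCA. Allografts grew from cells of 1 line, 402230, placed in the same muscle of syngeneic mice, so that the line and transplantation cannot be told apart in any comparison of the kinds. Every mouse received either muDX400, a murine antibody against the T cell receptor PD-1, or an isotype control, and then 0 or 20 Gy to the hind limb that bore the tumour. This gave 4 groups of 8 primary tumours and 4 groups of 4 allografts, and all groups, controls included, share the p53/MCA origin. The virus, the carcinogen and the cells were all placed in muscle, so that adult muscle next to the tumour can be part of a sample, and the question asked of the 10 genes was whether their RNA was present apart from that of adult muscle.

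Skeletal muscle forms in a series of steps. Pax3 marks muscle precursors of the embryo and Pax7 marks the satellite cells, the stem cells of adult muscle. Myf5 and Myod1 commit cells to the lineage, Myog drives their differentiation, and Myf6 (Mrf4) is the member of the family that mature fibres keep at the highest level. The 4 factors bind E-boxes, short DNA motifs with the letters CANNTG. Newly formed fibres use Myh3 and Myh8 before adult myosins replace them, Mymk lets myoblasts fuse, and Chrng is the receptor subunit that Chrne replaces after birth. In adult muscle these last 4 genes are known as signs of regeneration or, for Chrng, of lost innervation.

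Because several of the genes moved together across tumours, the 250 bases before the RefSeq start (GRCm38.p6, with the chromosome coordinates of mm10) of 4 genes known to respond to the myogenic factors are shown, 5′ to 3′ on the coding strand, with every E-box (CANNTG) in capitals. The motif is a palindrome, so 1 strand covers both.
Myog (chr1:134289754-134290003, plus strand): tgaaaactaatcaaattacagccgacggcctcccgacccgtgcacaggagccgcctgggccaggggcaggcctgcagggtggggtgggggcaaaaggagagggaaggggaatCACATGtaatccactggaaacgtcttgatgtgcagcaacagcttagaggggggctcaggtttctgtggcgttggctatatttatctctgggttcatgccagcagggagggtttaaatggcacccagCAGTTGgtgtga
Chrng (chr1:87205561-87205810, plus strand): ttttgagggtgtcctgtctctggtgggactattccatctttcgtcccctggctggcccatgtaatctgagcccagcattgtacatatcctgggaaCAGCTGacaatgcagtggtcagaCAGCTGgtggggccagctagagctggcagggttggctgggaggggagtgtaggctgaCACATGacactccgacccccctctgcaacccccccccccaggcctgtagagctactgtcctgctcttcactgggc
Myh3 (chr11:67078050-67078299, plus strand): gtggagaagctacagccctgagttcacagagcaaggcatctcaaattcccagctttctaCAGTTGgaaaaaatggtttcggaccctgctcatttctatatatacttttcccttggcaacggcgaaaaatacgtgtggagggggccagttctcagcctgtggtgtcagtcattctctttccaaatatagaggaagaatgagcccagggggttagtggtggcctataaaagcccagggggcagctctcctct
Myh8 (chr11:67276874-67277123, plus strand): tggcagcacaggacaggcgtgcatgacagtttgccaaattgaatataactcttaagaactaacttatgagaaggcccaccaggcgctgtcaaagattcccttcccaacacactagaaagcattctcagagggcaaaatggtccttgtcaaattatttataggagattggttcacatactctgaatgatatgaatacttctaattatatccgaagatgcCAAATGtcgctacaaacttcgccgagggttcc
The Chrng window held 3 E-boxes, of which 2 read CAGCTG and the other, at 75 to 70 bases before the start, read CACATG. The Myog window held 2, a distant CACATG and a CAGTTG at 12 to 7 bases before the start. Myh3 and Myh8 had 1 each, a CAGTTG at 191 to 186 bases and a CAAATG at 32 to 27 bases. The windows of Pax7 and Myf5, which are not printed, held 0. By the GENCODE M21 annotation all 250 bases of the Pax7 window lie in exons of Pax7, so that window is not upstream of every annotated start. Of 32851 mouse promoters of the same length, 66.2% held at least 1 CANNTG, 31.8% at least 2 and 12.2% at least 3, and 1.26% held CAGCTG at least 2 times. These are matches of letters, not measured sites. Of the GENCODE M21 annotation, the last 15 bases of the Myog window fall in the first exon, the Chrng window lies inside the longest gene model with 1 base in an exon, and the Myh3 and Myh8 windows touch no exon. Windows for Pax3, Myod1, Myf6 and Mymk were not used here.

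Each tumour had 31.8 to 54.01 M counts (M, mega; median 41.2 M), so that 3 counts, taken as the limit for a gene listed at 0, correspond to 0.0536 to 0.101 CPM, depending on the library. CPM (counts per mega count), these limits included, are given after TMM scaling, which sets libraries to a common level. Limits of this kind cover counting error only. Adult muscle was followed with 16 genes of fast fibres (Ckm, Acta1, Myh4 and others), whose mean log2(CPM + 0.5) is called the adult muscle score. It ran from 0.80 to 11.95 in the primary tumours (median 6.25) and from 2.57 to 9.65 in the allografts (median 7.74), and the summed CPM of the 4 defining fibre markers (Ckm, Acta1, Myh4, Mylpf) from 7.44 to 56606 and from 50.9 to 14166. Markers of satellite cells (Pax7, Calcr, Cdh15) summed to 0.373 to 52.0 CPM in the primary tumours and 1.69 to 24.2 CPM in the allografts, and none of the 3 was at 0 throughout. Several tumours stood apart and are named where they touch a result: the first isotype allografts at each dose, with scores of 2.57 and 2.58 against 6.39 or more in the other 14, and 2 primary tumours given 20 Gy and anti-PD-1, replicates 3 and 4. Replicate numbers follow accession order and only name a tumour. In bulk RNA, fewer cells of a type and less RNA per cell cannot be told apart.

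The early factors were low, Pax3 near or under the detection limit throughout and Pax7 and Myf5 under 1 CPM in most tumours. Pax3 (chr1:78101267-78197134, minus strand, mm10) had 16 counts over all 48 tumours, in 12 of them, and passed the filter on low counts in no comparison. Pax7 (chr4:139737062-139833528, minus) ranged from 0 to 1.22 CPM in the allografts (median 0.253) and from 0 to 2.33 CPM in the primary tumours (median 0.0465). Myf5 (chr10:107482908-107486134, minus) ranged from 0 to 2.75 CPM (median 0.378) and from 0 to 3.81 CPM (median 0.0262). The highest primary value of both genes came from the same tumour, replicate 4 of the 20 Gy anti-PD-1 group, which also had the highest adult muscle score (11.95). Above 1 CPM lay 1 allograft and 2 primary tumours for Pax7, and 3 and 2 for Myf5.

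The later factors were well detected in most allografts and in part of the primary tumours. Myod1 (chr7:46376474-46379099, plus) ranged from 0.334 to 21.7 CPM in the allografts, with a median of 8.95, and from 0 to 32.5 CPM in the primary tumours, with a median of 1.41. Myog (chr1:134289989-134292548, plus) ranged from 0.501 to 29.3 CPM (median 12.1) and from 0 to 50.3 CPM (median 1.09). Myf6 (chr10:107492853-107494737, minus) ranged from 0.286 to 123.6 CPM (median 28.0) and from 0 to 174 CPM (median 3.12). Above 1 CPM lay 14, 15 and 14 of the 16 allografts for Myod1, Myog and Myf6, and 17, 18 and 23 of the 32 primary tumours. The ranges of the kinds overlapped for every one of these genes.

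Per tumour, Myog was 0.501, 9.94, 19.3 and 16.6 CPM in the 0 Gy isotype allografts and 29.3, 5.58, 22.8 and 3.65 CPM in those given 0 Gy and anti-PD-1. It was 1.34, 27.2, 16.1 and 14.2 CPM after 20 Gy with isotype and 5.38, 18.1, 9.25 and 9.26 CPM after 20 Gy with anti-PD-1. The 2 low values belong to the 2 allografts of low adult muscle score, and otherwise the 4 groups overlapped. Myod1 was lowest in the same 2 tumours, at 0.334 and 0.350 CPM, and so was Myf6, at 0.286 and 0.350 CPM.

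The embryonic and perinatal myosins were also present in most allografts. Myh3 (chr11:67078300-67102291, plus), the embryonic chain, was 0.739, 4.95, 11.3 and 5.49 CPM in the 0 Gy isotype allografts, 12.5, 9.52, 20.2 and 1.01 CPM with anti-PD-1, 0.409, 32.5, 25.9 and 7.49 CPM after 20 Gy with isotype and 4.60, 13.5, 7.37 and 39.6 CPM after 20 Gy with anti-PD-1. Myh8 (chr11:67277124-67308634, plus), the perinatal chain, was 0.930, 6.02, 9.09 and 6.14 CPM, then 17.4, 11.8, 6.59 and 2.31 CPM, then 0.623, 32.6, 53.8 and 9.34 CPM and last 4.55, 31.5, 6.89 and 67.1 CPM in the same order of groups. The highest allograft value of both myosins came from the tumour with the third lowest adult muscle score (6.39), replicate 4 of the 20 Gy anti-PD-1 group. In the primary tumours the median of Myh3 was 0.754 CPM and that of Myh8 0.454 CPM, with 12 and 10 of 32 tumours above 1 CPM against 14 of 16 allografts for either gene. The maximum of Myh3, 118.8 CPM, came from 1 primary tumour, replicate 3 of the 20 Gy anti-PD-1 group, and the next highest primary value was 18.8 CPM. Both genes belong to a cluster of similar myosin genes, so reads shared with other myosins may be split between them, and Mir6923 lies inside Myh3 on the same strand.

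Mymk (chr2:27061636-27072179, minus), the muscle fusion protein, had a median of 2.73 CPM in the allografts (0.286 to 7.15) and of 0.111 CPM in the primary tumours (0 to 39.2). Chrng (chr1:87204657-87212694, plus), the fetal receptor subunit, had a median of 4.74 CPM in the allografts (0.215 to 19.2) and of 0.182 CPM in the primary tumours (0 to 12.5). Above 1 CPM lay 13 of 16 allografts and 6 of 32 primary tumours for Mymk, and 14 and 10 for Chrng. Chrng was 0.215, 1.76, 5.85 and 2.38 CPM in the 0 Gy isotype allografts and 0.603, 19.2, 9.59 and 6.05 CPM after 20 Gy with isotype. With anti-PD-1 it was 7.01, 1.20, 4.15 and 1.17 CPM at 0 Gy and 4.88, 12.0, 9.05 and 4.59 CPM at 20 Gy. The highest primary values of Mymk and Chrng, 39.2 and 12.5 CPM, came from the tumour with the highest Myh3.

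Set per kilobase of exon, so that genes can be compared with each other, the median level in the allografts was highest for Myf6 (22.2 CPM per kilobase), then Myog (8.07), Myod1 (4.81), Mymk (1.81), Myh3 (1.40), Chrng (1.14), Myh8 (0.679), Myf5 (0.181), Pax7 (0.0432) and Pax3 (0). In the primary tumours the order was Myf6 (2.47), Myod1 (0.755), Myog (0.731), Myh3 (0.124), Mymk (0.0736), Chrng (0.0437), Myh8 (0.0386), Myf5 (0.0126) and Pax7 (0.00794). The ranges of all neighbours in either order overlapped. The length used was the union of the exons of all annotated transcripts, for example 11.8 kilobases for Myh8, 6.06 for Myh3 and 4.16 for Chrng. It can exceed the length of a single transcript, so both orders are approximate.

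**Figure D1:**
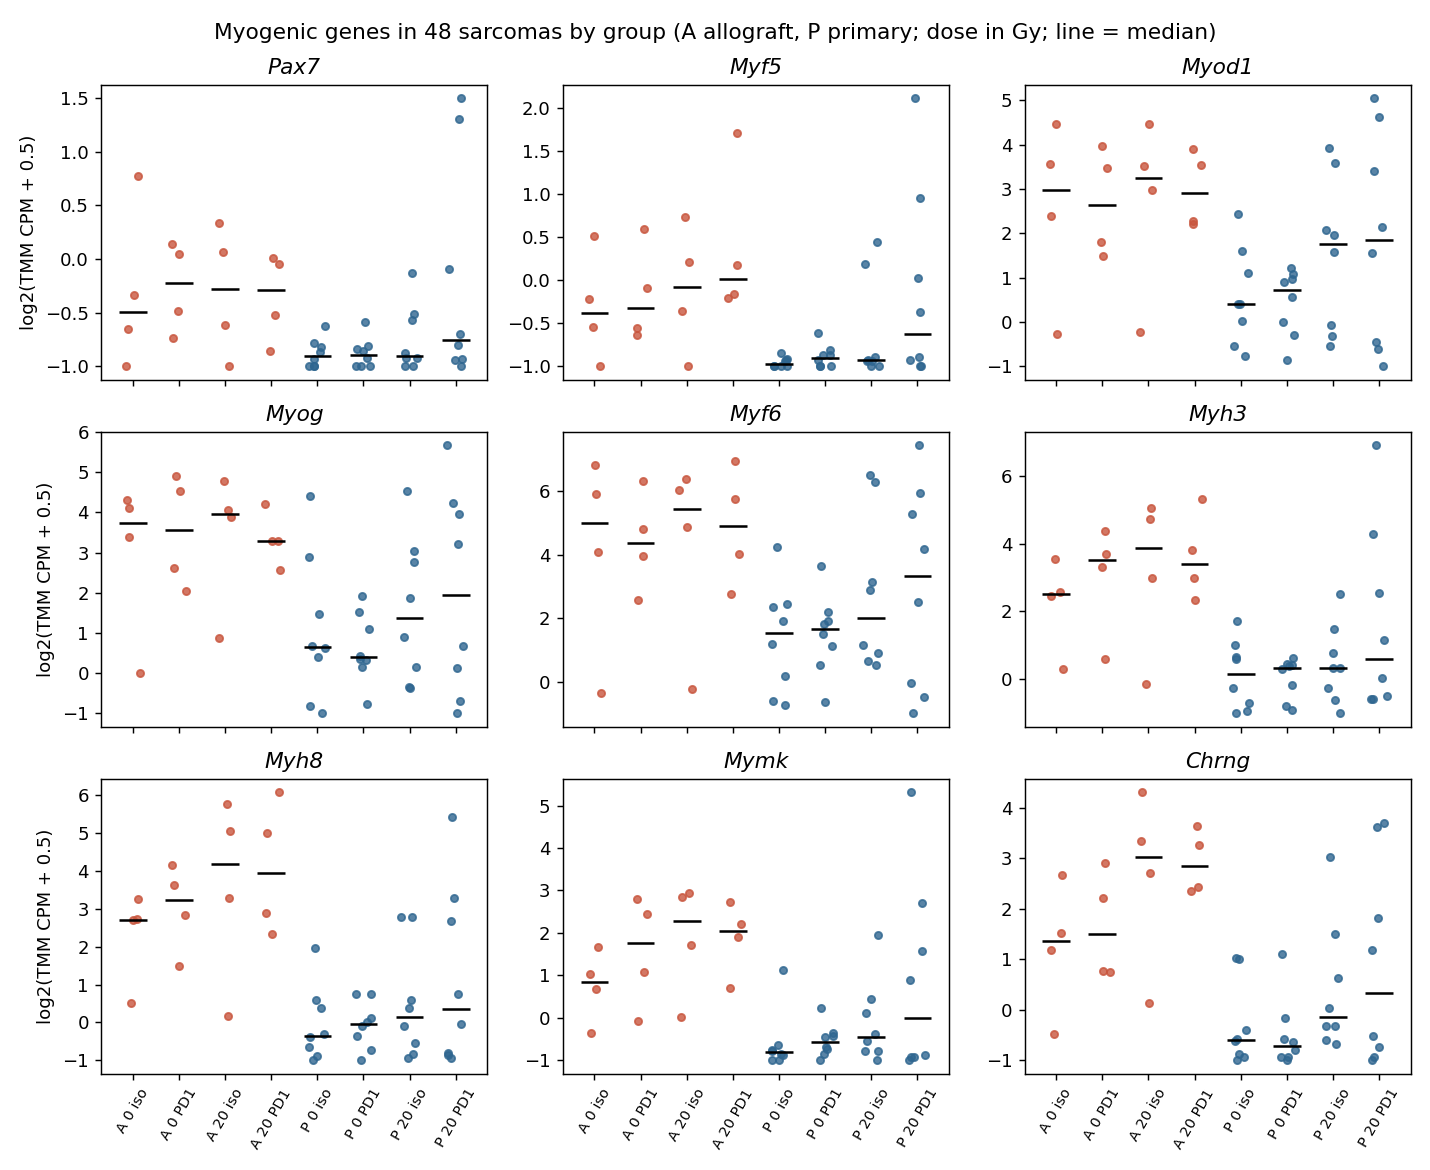
Each panel plots 1 gene as log2(TMM CPM + 0.5) in every tumour (points) of the 8 groups, with the group median as a line; A marks allograft and P primary groups, with the dose in Gy. Most allografts sit above the primary medians, the first isotype allograft at each dose sits low for Myod1, Myog and Myf6, and 1 primary tumour of the 20 Gy anti-PD-1 group reaches 118.8 CPM of Myh3.

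The first comparison asked whether the genes differed between primary tumours and allografts, averaged over the 4 treatments. All 9 genes that passed the filter on low counts, which leaves out Pax3, were lower in the primary tumours. Of the later genes, Myh8 was 8.83-fold lower (log2 -3.14, SE 0.62, adjusted p = 9.19e-05), Myh3 5.99-fold (log2 -2.58, SE 0.60), Chrng 5.20-fold (log2 -2.38, SE 0.60) and Mymk 4.22-fold lower (log2 -2.08, SE 0.63). Of the myogenic factors, Myf5 was 5.05-fold lower (log2 -2.34, SE 0.60), Myf6 4.04-fold (log2 -2.02, SE 0.66), Myod1 3.19-fold (log2 -1.67, SE 0.54) and Myog 3.02-fold lower (log2 -1.59, SE 0.59, adjusted p = 0.0314), and Pax7 was 3.14-fold lower (log2 -1.65, SE 0.55). Adjusted p-values are from edgeR's quasi-likelihood test with Benjamini-Hochberg adjustment over 19327 genes, of which 15.7% were called lower (adjusted p below 0.05) with a median log2 of 0.00 over all genes. Of the 16 adult fast muscle genes 0 were called by edgeR and 0 had an unadjusted p under 0.05, with a median log2 of -0.49.

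With the adult muscle score as a term of the fit, 8 of the 9 genes remained lower in the primary tumours, where 16.7% of all genes were called lower. Myh8 kept a log2 difference of -3.03 (adjusted p = 1.71e-07), Myh3 of -2.22, Myf5 of -1.74, Chrng of -1.68 and Mymk of -1.64. The values nearer 0 were Pax7 at -1.11, Myf6 at -1.09 and Myod1 at -0.95, and Myog, at -0.99, was no longer called (adjusted p = 0.0722, edgeR). Leaving out each allograft in turn left 7 to 9 genes called. Myog was lost without replicate 3 of the 0 Gy isotype, replicate 2 of the 20 Gy isotype, replicate 1 of the 0 Gy anti-PD-1 or replicate 2 of the 20 Gy anti-PD-1 allografts, and Pax7 without the first of these.

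The first digit of the animal identifiers in the labels moved with the tumour kind: it was 4 for 30 of 32 primary tumours and 5 for 11 of 16 allografts, and the labels do not say what it stands for. With this digit as a term, 1 of 9 genes was called lower, Myh8 (log2 -3.36, SE 1.06, adjusted p = 0.0208 by edgeR), against 7.77% of all genes, and the others lay between -1.11 (Myog) and -2.25 (Myh3). Among tumours with the digit 4 alone, compared over the 3 treatments that held both kinds (22 primary tumours and 5 allografts, with a single allograft in 2 of the 3), 0 of 9 were called (1.53% of all genes; edgeR, 1 at an unadjusted p under 0.05), with log2 differences from -2.28 (Myh8) to 0.24 (Pax7). Among those with the digit 5, 2 treatments held both kinds, with 1 primary tumour in each, 4 allografts in all and 1 tumour against 1 for 20 Gy with isotype. The spread there came from the groups with several tumours, and the lone tumours were assumed to vary like them. The 2 primary tumours had adult muscle scores of 2.36 and 4.46, against 6.80 to 9.33 in the 4 allografts. In this fit Myh8 (log2 -8.44, adjusted p = 0.0369) and Mymk (log2 -6.69, adjusted p = 0.0455) were called lower (1.3% of all genes), and the other genes lay between -4.85 and -6.82. In the digit 4 tumours Myf6 (0.19) and Pax7 had the opposite sign. Because the digit followed the kind in most tumours, kind and digit cannot be told apart for any of the 9 genes, Myh8 included.

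**Figure D2:**
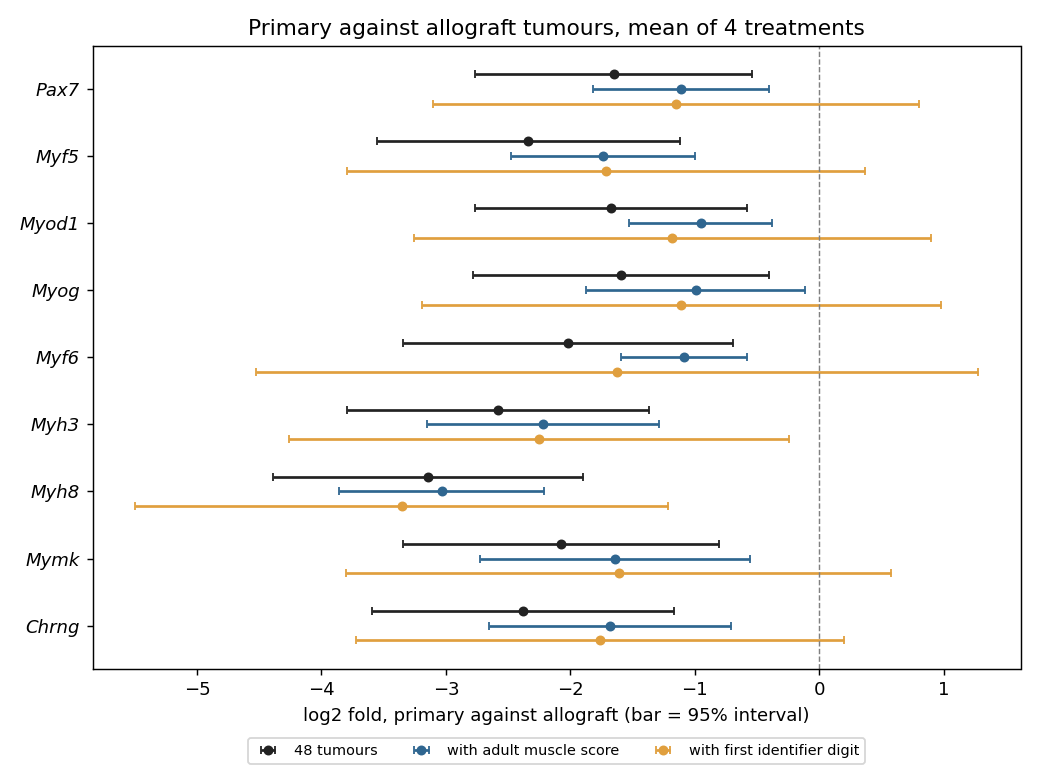
Log2 fold of each gene in primary tumours against allografts (x axis, below 0 means lower in primary tumours; bars are 95% intervals) in the fit of 48 tumours, with the adult muscle score and with the first identifier digit as a term. Myh8 sits at -3.14, -3.03 and -3.36, and the intervals of all 9 genes, Myh8 included, widen with the digit.

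The 4 treatments, taken from the same fit, gave fewer calls. At 0 Gy with isotype only Myf5 was called lower in the primary tumours (log2 -4.18, adjusted p = 0.0395, edgeR), 1 of 9 genes against 3.9% of all genes. The 8 primary tumours of this group held 6 counts of Myf5 in all (at most 0.0564 CPM), and 1 of the 4 allografts was at 0. The log2 value thus rests on a group near the detection limit, and Myf5 did not pass the filter in the primary fit or in the untreated tumours alone. At 0 Gy with anti-PD-1 the 2 myosins were called lower, Myh3 at -4.17 (adjusted p = 0.031) and Myh8 at -4.15 (adjusted p = 0.0367, edgeR), against 3.42%. All 9 log2 values there were negative, from -4.17 to -2.89, with adjusted p-values up to 0.138 (edgeR). At 20 Gy 0 of 9 were called with isotype (2.47% of all genes; Myh3 -3.63 and Myh8 -3.66) and 0 with anti-PD-1 (3.05%), where 5 of 9 log2 values were above 0; of the 9 genes, 4 had an unadjusted p under 0.05 with isotype and 0 with anti-PD-1. With the adult muscle score as a term, Myh8 was called lower after 20 Gy with isotype (log2 -3.36, 1 gene against 2.98%) and with anti-PD-1 (log2 -3.89, adjusted p = 0.00454, 1 gene against 3.87%). In that fit 1 gene was called at 0 Gy with isotype (4.18%) and 4 at 0 Gy with anti-PD-1, Myod1, Myf6, Myh3 and Myh8 (3.53%).

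The untreated tumours were also compared by themselves, 8 primary against 4 allograft. Of the 7 genes that passed the filter there, 0 were called lower, against 3.99% of all genes, though all 7 log2 values were negative, from -1.54 (Myog, adjusted p = 0.459) to -3.52 (Myf6, adjusted p = 0.0791, edgeR quasi-likelihood), and 6 had an unadjusted p under 0.05. For Myh3, the 4 allografts at 0.739 to 11.3 CPM overlapped the primary range of 0 to 2.82 CPM (median 0.673) through the allograft of low adult muscle score. The call depended on the test: DESeq2 called 4 of 7 (6.79% of all genes), edgeR without the filter called 1 (2.0%), the fit of 48 tumours 1 (3.9%), and leaving out 1 tumour at a time gave 0 to 2, with 2 without replicate 1 or replicate 7 of the primary tumours.

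How far the genes followed adult muscle was then measured as the slope of each gene on the adult muscle score among tumours of the same group; a slope of 1 means in proportion. In the primary tumours all 7 genes tested rose with the score, against 7.7% of all genes. Myf6, the factor of mature fibres, had a slope of 0.99 (95% interval 0.86 to 1.12). Myh8 (0.84), Myh3 (0.82), Myog (0.78) and Mymk (0.76) had intervals that held 1, as that of Myf6 did. Those of Myod1 (0.79, interval 0.62 to 0.96) and Chrng (0.67, interval 0.35 to 0.99) lay below 1. The adjusted p-values, from edgeR's quasi-likelihood test, ran from 1.42e-13 for Myf6 to 0.00828 for Mymk, and all 7 calls held without any 1 of the 32 tumours.

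In the allografts 6 of 9 genes were called as rising with the score, against 4.63% of all genes. All 9 slopes were above 0, and of Myh3, Myh8, Mymk and Chrng only Chrng was called. The slopes span a gap in the scores, from 2.57 and 2.58 in the low allografts to 6.39 or more in the other 14. Leaving out 1 tumour keeps at least 1 low allograft in the fit. Over the other 14 alone, 3 of 9 genes followed the score by correlation: Myf6, Myod1 and Myf5. The slope of Myf6 was 1.20 (SE 0.09), that of Myf5 0.91, of Myod1 0.77, of Pax7 0.70, of Chrng 0.63 (interval 0.43 to 0.83) and of Myog 0.60. Not called were Myh8 (0.51, adjusted p = 0.29), Myh3 (0.48, adjusted p = 0.399) and Mymk (0.42, adjusted p = 0.138, edgeR). These calls depended on single tumours, with 4 to 8 genes called when 1 allograft was left out. Without replicate 4 of the 20 Gy anti-PD-1 group, the tumour with 39.6 CPM of Myh3, both myosins were called (adjusted p = 0.039 for Myh3 and 0.0056 for Myh8), and Mymk was called without replicate 3 or replicate 4 of the 0 Gy anti-PD-1 group. Myog was lost without either allograft of low score, and Pax7 without any of 6 tumours. With a score from 8 genes of slow fibres in place of the fast ones, 0 of 9 were called by edgeR (1.64% of all genes), though all 9 had an unadjusted p under 0.05. The slopes of the kinds were not tested against each other, nor were those of different genes.

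**Figure D3:**
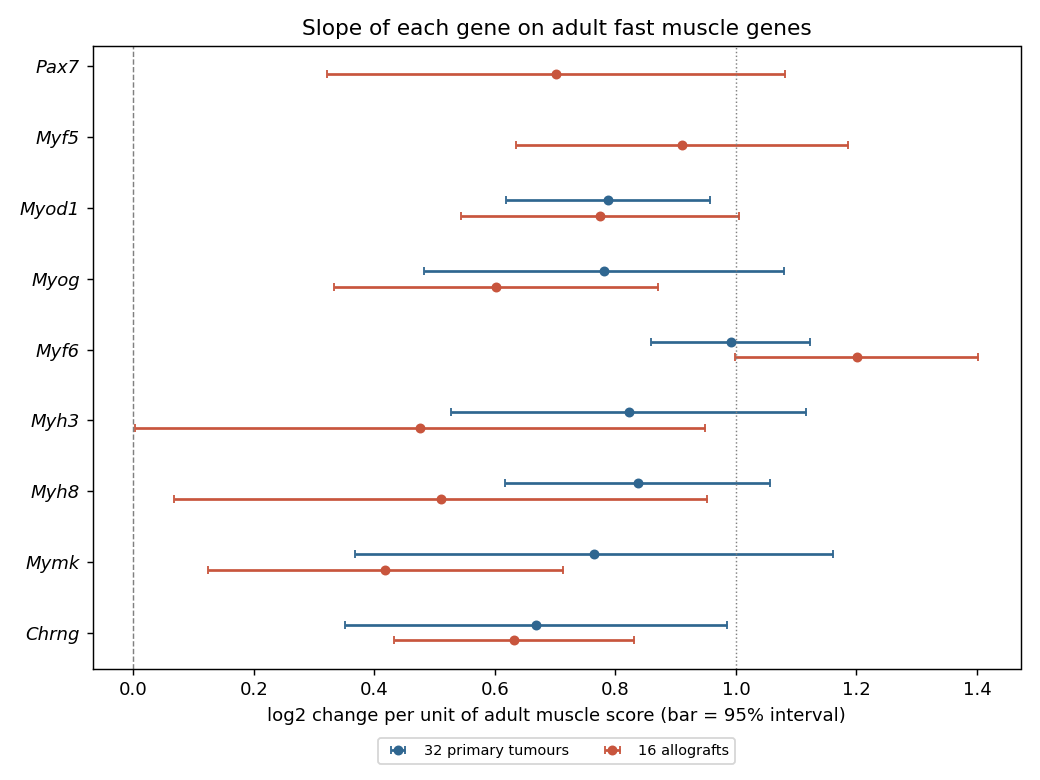
Log2 change of each gene per unit of adult muscle score (x axis; points are slopes and bars 95% intervals) in primary tumours and in allografts, with a dotted line at 1, in proportion to adult muscle. Myf6 sits at 0.99 and 1.20, and the allograft slopes of Myh3, Myh8 and Mymk lie between 0.42 and 0.51.

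The same relation without groups, as a correlation over the 32 primary tumours, held for all 9 genes that entered, with at least 0.1 CPM on average. Pax7 and Myf5, which did not pass the filter in the primary fit, entered largely through the 20 Gy anti-PD-1 group. Their means were 0.621 and 0.761 CPM there and at most 0.111 and 0.201 CPM in the other primary groups. Their medians over the 32 tumours, 0.0465 and 0.0262 CPM, lay under the limit of 3 counts. Pearson's r of log2(CPM + 0.5) with the adult muscle score ran from 0.56 (Mymk, adjusted permutation p = 0.00051) to 0.94 (Myf6, rho 0.95), with r of 0.88 for Myod1, 0.75 for Myog, 0.70 for Myh3, 0.79 for Myh8 and 0.62 for Chrng. Without the 2 tumours farthest from the median score, r ran from 0.48 to 0.92. All 36 pairs of the genes were correlated too, with r from 0.65 to 0.95, and the highest were Myod1 with Myf6 and Myh3 with Mymk, both at 0.95. Without the 2 tumours farthest from the median of the first gene of each pair, r of the pairs ran from 0.41 to 0.96, and the lowest was Pax7 with Chrng (0.74 with all 32). There were 45 relations in the family, p-values came from 100000 permutations (2-sided, smallest possible p 1e-05) and were adjusted by Benjamini-Hochberg, and both r and Spearman's rho passed in every pair.

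The 16 allografts fell into 2 clusters by score, the 2 low tumours and the other 14, so the correlation was computed over the 14. There 3 of 9 genes followed the score by both measures: Myf6 (r = 0.88, rho 0.89), Myod1 (r = 0.74, rho 0.79) and Myf5 (r = 0.70, rho 0.62, adjusted permutation p = 0.00876 and 0.0378). Pax7 (r = 0.57), Myog (r = 0.50) and Chrng (r = 0.48) did not pass (adjusted permutation p = 0.0512, 0.0952 and 0.106 for r). Nor did Myh3 (r = 0.08), Myh8 (r = 0.17) and Mymk (r = 0.26), with adjusted permutation p = 0.797, 0.598 and 0.4 for r. Without the 2 of these 14 tumours farthest from the median score, r was 0.83 for Myf6, 0.67 for Myod1 and 0.73 for Myf5, and 0.34, 0.58 and 0.40 for Myh3, Myh8 and Mymk. The same 3 genes were correlated with each other, Myh3 with Mymk at r = 0.88 and Myh3 with Myh8 at r = 0.87, while r of Myf6 was 0.06 with Myh3 and 0.13 with Myh8. Without the 2 of the 14 tumours farthest from the median of Myf6 these were 0.43 and 0.65, so the low values rest on those tumours. Over the 14, 22 of 36 pairs passed both measures. Myod1 and Myog, both regulators, were correlated at r = 0.88. Over all 16, where no pooled r is given because of the clusters, 6 of 9 genes and 35 of 36 pairs of genes passed both measures, and Myh3, Myh8 and Mymk passed by r (adjusted permutation p = 0.00882, 0.00756 and 0.00825) but not by rho (adjusted permutation p = 0.144, 0.0765 and 0.122).

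**Figure D4:**
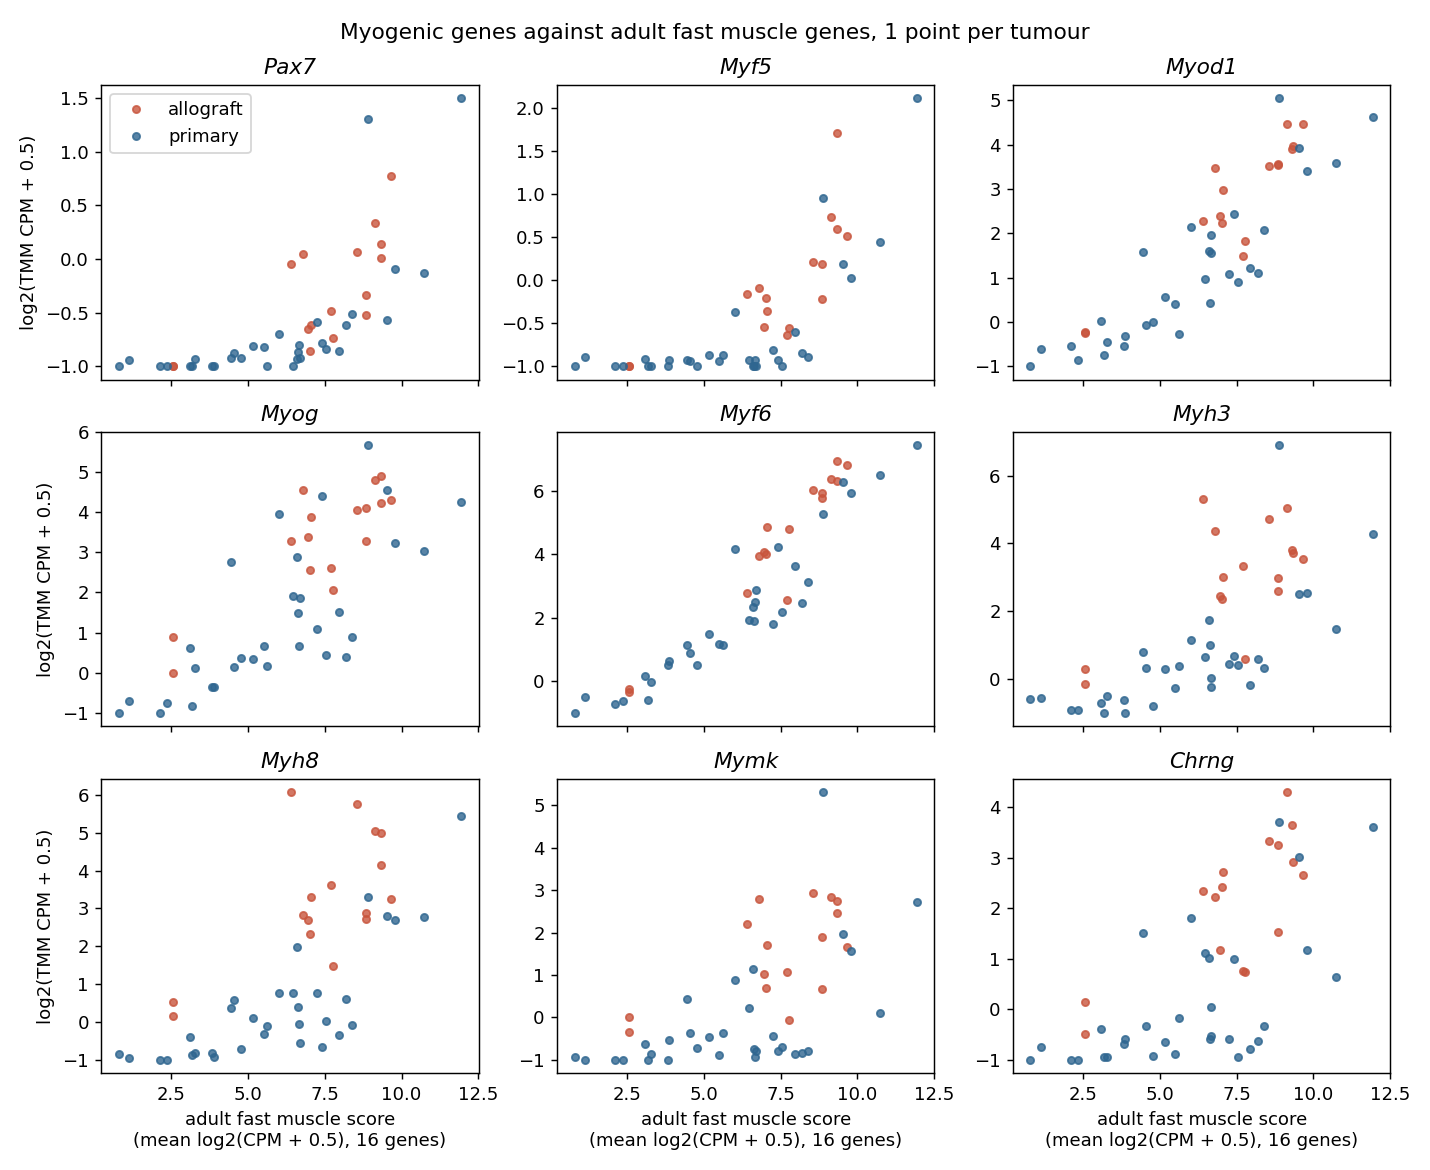
Each panel plots log2(TMM CPM + 0.5) of 1 gene (y axis) against the adult muscle score, the mean log2(CPM + 0.5) of 16 fast fibre genes (x axis), 1 point per tumour and colours for the kinds. Myf6 lies along a line (r = 0.94 over 32 primary tumours), and among allografts scoring 6.39 or more Myh3 shows no such line (r = 0.08).

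The tumours with the least adult muscle RNA show the level of the genes where that RNA is scarce. The primary tumour of lowest score (0.80, summed adult muscle genes 34.6 CPM), replicate 1 of the 20 Gy anti-PD-1 group, had 0 counts of Myod1, Myog, Myf6 and Chrng, 0.164 CPM of Myh3 and 0.0547 CPM of Myh8. The next, replicate 5 of that group (score 1.13, 67.2 CPM), had at most 0.215 CPM of any of the 10 genes. The third, replicate 4 of the 0 Gy isotype group (score 2.13, 90.1 CPM), had 0.182 CPM of Myod1 and 0 counts of Myog, Myh8, Mymk and Chrng. Just below and just above the 2 low allografts in score were replicate 7 of the 0 Gy anti-PD-1 group (score 2.36, 112.4 CPM), with 0.0903 CPM of Myog and 0 counts of Myh8, Mymk and Chrng, and replicate 5 of the 0 Gy isotype group (score 3.11, 194.4 CPM). The latter had 0.518 CPM of Myod1, 1.04 CPM of Myog, 0.115 CPM of Myh3, 0.259 CPM of Myh8, 0.144 CPM of Mymk and 0.259 CPM of Chrng. The 2 allografts of low score, at 2.57 and 2.58 (summed adult muscle genes 140.4 and 135.5 CPM), had 0.350 and 0.334 CPM of Myod1, 1.34 and 0.501 CPM of Myog, 0.623 and 0.930 CPM of Myh8, 0.409 and 0.739 CPM of Myh3, 0.506 and 0.286 CPM of Mymk and 0.603 and 0.215 CPM of Chrng. In the primary tumour with a score of 3.11, Myog and Chrng lay within these pairs of values, Myod1 above and Myh3, Myh8 and Mymk below. These are values of single tumours, and no test was made between them.

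Radiation was compared within each kind. In primary tumours given isotype, 0 of 7 genes were called higher after 20 Gy, against 7.85% of all genes. The log2 values ran from 0.39 (Myog, 95% interval -1.87 to 2.65) to 2.49 (Myf6, adjusted p = 0.174 by edgeR), 0 had an unadjusted p under 0.05, and DESeq2 also called 0. When replicate 1 of the 20 Gy isotype tumours, which had 22.8 CPM of Myog and 5.23 CPM of Myh3, was left out, the log2 values of Myog and Myh3 were -0.53 and -0.12.

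In primary tumours given anti-PD-1, 2 of 7 genes rose after 20 Gy, against 6.06% of all genes. Myh3 rose with a log2 change of 4.94 (SE 1.30, adjusted p = 0.0172) and Mymk with one of 4.87 (SE 1.41, adjusted p = 0.0303, edgeR quasi-likelihood). Myh3 ranged from 0.0361 to 1.06 CPM at 0 Gy (median 0.770) and from 0.164 to 118.8 CPM at 20 Gy (median 1.12), and Mymk from 0 to 0.673 CPM (median 0.175) and from 0 to 39.2 CPM (median 0.697). The groups overlapped for both genes. The other 5 genes had log2 values of 3.20 to 3.82 and adjusted p-values of 0.0587 to 0.0987.

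Both calls rested on 1 tumour, replicate 3 of the 20 Gy anti-PD-1 group, with 118.8 CPM of Myh3 and 39.2 CPM of Mymk. Without it 0 of 7 genes were called by edgeR and 6 had an unadjusted p under 0.05, with Myh3 at 2.72 (adjusted p = 0.138) and Mymk at 2.77 (adjusted p = 0.181). Other single tumours also moved the count: it was 6 without replicate 1 and 4 without replicate 5 of the same group, the 2 primary tumours of lowest adult muscle score, and 1 without any of replicates 2, 3, 6, 7 and 8 of the 0 Gy anti-PD-1 group. DESeq2 called 7 of 7 (8.93% of all genes), edgeR without the filter 4 (2.46%) and the fit of 48 tumours 8 of 9 (7.92%). With the adult muscle score as a term, Myh3 (log2 2.97, adjusted p = 0.0293) and Myf6 (log2 1.32, adjusted p = 0.0441) were called (6.2%). In this comparison 0 of the 16 adult fast muscle genes were called by edgeR and 13 were higher at an unadjusted p under 0.05, with a median log2 of 2.79 against 0.02 over all genes.

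**Figure D5:**
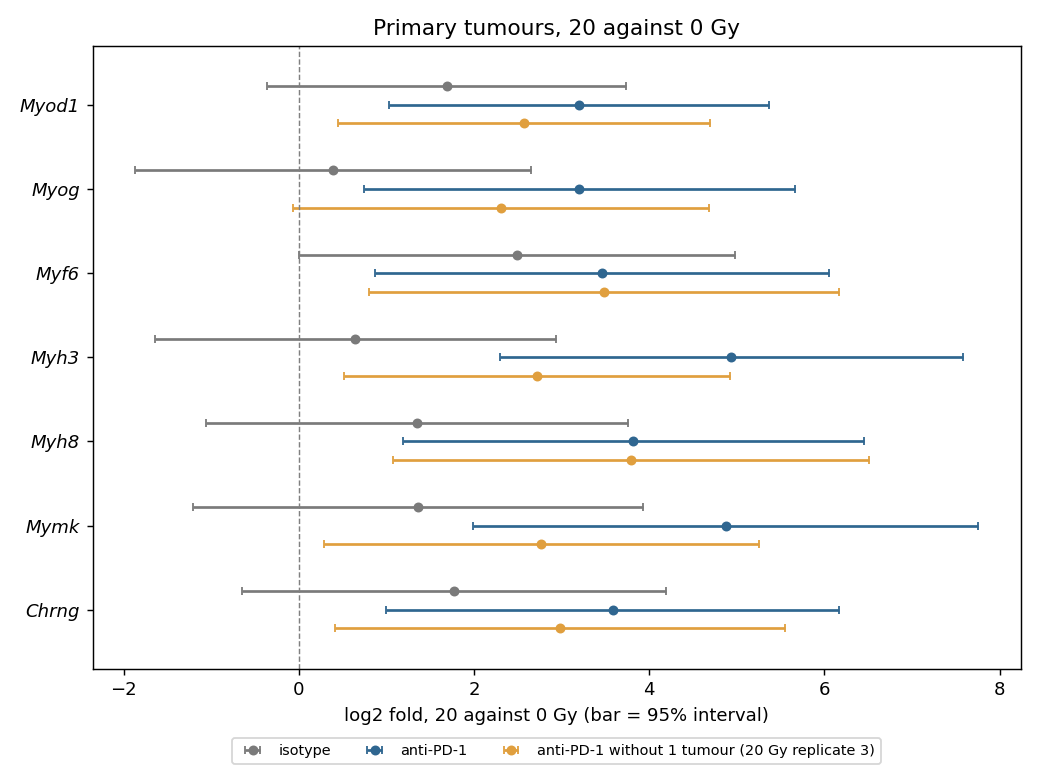
Log2 fold of each gene at 20 against 0 Gy in primary tumours (x axis; bars are 95% intervals) with isotype, with anti-PD-1, and with anti-PD-1 without replicate 3 of the 20 Gy group. Myh3 goes from 4.94 to 2.72 and Mymk from 4.87 to 2.77 when that tumour is left out.

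Primary tumours given both treatments were also compared with those given neither, a comparison that shares its 20 Gy anti-PD-1 tumours with the one above. The same 2 genes were called, Myh3 at a log2 of 4.41 (adjusted p = 0.0183) and Mymk at 4.55 (adjusted p = 0.0271, edgeR), against 8.78% of all genes. Without replicate 3 of the treated group 0 were called by edgeR (4 at an unadjusted p under 0.05), with Myh3 at 2.20 and Mymk at 2.46. The count was 5 without replicate 1 and 4 without replicate 5 of the treated group and 1 without replicate 3 of the 0 Gy isotype group. It was 6 by DESeq2 (12.8% of all genes), 4 without the filter (4.42%), 5 in the fit of 48 tumours (11.4%) and 1, Myh3, with the adult muscle score (7.83%).

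Averaged over both antibodies, a comparison added after the data were seen, 6 of 7 genes were higher at 20 Gy in the primary tumours, against 14.6% of all genes. Mymk rose by a log2 of 3.12, Myf6 by 2.97, Myh3 by 2.79, Chrng by 2.68, Myh8 by 2.58 and Myod1 by 2.44 (adjusted p from 0.0127 for Myf6 to 0.0271 for Myh8), and Myog was not called (1.80, adjusted p = 0.0981, edgeR). Of the adult fast muscle genes 11 of 16 rose too, with a median log2 of 2.48. Group medians of the adult muscle score were 6.05 and 6.05 at 0 Gy and 5.63 and 6.33 at 20 Gy (isotype, anti-PD-1). The highest scores were 8.19 and 7.95 against 10.72 and 11.95. Medians of Myh3 were 0.673 and 0.770 CPM against 0.754 and 1.12 CPM, and those of Myf6 2.49 and 2.66 CPM against 4.27 and 11.3 CPM. The tumours with the highest scores were not left out in this comparison. With the adult muscle score as a term 2 genes were called, Myod1 at 1.02 (adjusted p = 0.0435) and Myf6 at 0.92 (adjusted p = 0.022), against 12.7% of all genes. Without replicate 3 of the 20 Gy anti-PD-1 group 4 were called, and Mymk (2.07, adjusted p = 0.0704) and Myh3 (1.68, adjusted p = 0.0934) were not.

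In the allografts 0 of 9 genes were called higher after 20 Gy, with isotype (4.4% of all genes), with anti-PD-1 (3.13%), for both treatments against neither (7.43%) or averaged over the antibodies (9.56%), and DESeq2 called 0 in the first 3. At an unadjusted p under 0.05 lay 0, 0, 1 (Myh8) and 2 (Myh8 and Chrng) genes. Chrng, the receptor subunit, had the smallest or next smallest p in each, with log2 values of 1.82 (isotype, 95% interval -0.12 to 3.77), 1.20 (anti-PD-1), 1.56 (both treatments) and 1.51 (average, adjusted p = 0.143 by edgeR). With the adult muscle score as a term Chrng was called, as 1 of 9 genes, with isotype (log2 1.90, adjusted p = 0.0302, 4.47% of all genes), for both treatments (1.63, adjusted p = 0.0386, 7.23%) and averaged (1.53, adjusted p = 0.00513, 9.91%). The identifier digit moved with dose among allografts given isotype, being 5 for all 4 unirradiated ones and for 1 of the 4 irradiated, while with anti-PD-1 it was 5 for 3 of 4 at either dose. With the digit as a term 0 of 9 genes were called by edgeR with isotype (1.02% of all genes, 2 members at an unadjusted p under 0.05) or for both treatments (7.26%, 1 member), with Chrng at 2.66 (adjusted p = 0.215) and 1.90 (adjusted p = 0.183). The median log2 of the 9 genes with isotype was 0.53 without the digit and 1.63 with it, and the digit and the score were not fitted together. The average over the antibodies was not fitted with the digit. Chrng itself ranged from 0.215 to 5.85 CPM at 0 Gy and from 0.603 to 19.2 CPM at 20 Gy with isotype, and the groups overlapped.

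Anti-PD-1 against isotype gave 0 called members in all 4 comparisons, where 0.0% of all genes were called in the primary tumours at 0 Gy and at 20 Gy and 0.0% in the allografts at 0 Gy and at 20 Gy. DESeq2 called 0 members as well. The unadjusted p was under 0.05 for 2 members, Myh3 (log2 3.77, adjusted p = 0.56) and Mymk (log2 3.19, adjusted p = 0.596, edgeR), in the primary tumours at 20 Gy, where the tumour with the highest values of both is in the anti-PD-1 group, and for 0 in the other comparisons. In the allografts the log2 values lay between -0.63 (Myf6 at 0 Gy) and 1.25 (Mymk at 0 Gy), with 95% intervals of -3.46 to 2.19 and -0.57 to 3.08.

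The effect of 20 Gy was then compared between the kinds by an interaction term, averaged over the antibodies. Of the 9 genes 0 were called, against 0.0259% of all genes, with log2 differences from 0.74 (Myh8) to 2.82 (Myf5), all in the direction of a larger change in primary tumours. The adjusted p-values ran from 0.504 to 0.925 (edgeR), DESeq2 called 0, and 3 genes (Pax7, Myod1 and Myf5) had an unadjusted p under 0.05. With the adult muscle score as a term the value of Myh8 was -1.18.

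Other genes of the muscle programme were read from fixed lists in the same fits. Over all genes of this fit 15.7% were lower in primary tumours and 19.1% higher. Of 11 genes of embryonic and regenerating fibres 5 were lower and 0 higher, with a median log2 of -1.14: Mymx, the partner of Mymk in fusion, at -2.80 (adjusted p = 0.000219), Tnnt2 at -1.77, Des at -1.63 and the embryonic light chain Myl4 at -1.40 among them. Of 8 receptor and synapse genes 1 was lower, Chrnd (-2.22, adjusted p = 0.00275, edgeR), the receptor subunit encoded next to Chrng. Of 16 upstream regulators and satellite cell genes 5 were lower, among them Pitx3 (-2.06), Eya2 (-1.81) and the satellite cell cadherin Cdh15 (-1.53), and 3 were higher, among them Ncam1 (1.04). Of 13 inhibitors of the myogenic factors 3 were lower (Twist2 -1.04, Id4 -1.09) and 4 higher (Snai1 0.54, Zeb1 0.35), and of 8 cofactors 1, Rb1 (-0.43), was lower. Markers of other cells moved with the kind as well: 5 of 6 fibroblast markers were higher in primary tumours, and 3 of 8 leukocyte and 2 of 4 adipocyte markers lower. Their part in the result was not tested.

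In the primary tumours, where 7.7% of all genes rose with the adult muscle score, 8 of 10 tested genes of embryonic and regenerating fibres did so, among them Myl1 (slope 1.10), Actc1 (1.03) and Des (0.93), as did 6 of 8 receptor and synapse genes, 5 of 16 upstream regulators (Lbx1 0.97, Pitx3 0.64) and 5 of 8 cofactors (Mef2c 0.33). The 13 inhibitors had a median slope of -0.04 and the 6 fibroblast markers one of -0.01. After 20 Gy with anti-PD-1, where 2 of the 7 genes and 6.06% of all genes were called higher, 3 of 10 genes of embryonic and regenerating fibres rose (Actc1 4.95, Tnnt2 3.41, Myl4 2.60), as did 1 of 8 receptor and synapse genes (Chrne 3.25) and 2 of 16 upstream regulators and satellite cell genes (Cdh15 2.52, Itga7 1.74). Without replicate 3 of the 20 Gy anti-PD-1 group, the tumour on which the calls of Myh3 and Mymk rested, 0 of the genes of these 3 lists were called by edgeR. At an unadjusted p under 0.05 then lay 6 of 10, 3 of 8 and 8 of 16, the last including Met, which was lower (log2 -0.93). The 6 named genes had values from 1.39 (Cdh15, adjusted p = 0.232, edgeR) to 5.06 (Actc1, adjusted p = 0.0585).

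The genes outside the 10 with the most similar pattern over the 32 primary tumours, by Pearson's r of log2(CPM + 0.5), were Cav3 for Myod1 (r = 0.96), Chrnd for Myog (0.94) and for Chrng (0.96), Myh14 for Myf6 (0.98), Casq2 for Myh3 (0.94), Sln for Myh8 (0.94) and Myl4 for Mymk (0.95). The tumours share their libraries across all genes, and these values describe the pattern only.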

How the data were processed

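Bulk RNA of 48 sarcomas was sequenced from poly(A)-selected, strand-specific libraries of RNA with an integrity number above 7, per the labels' protocols. The authors deposited whole-number read counts per Ensembl gene for 36854 genes. Reads were trimmed with Trimmomatic 0.36 and handled with STAR, HTSeq and mm10, per the submitters' processing notes. Whether counting used strand is not given in the sources used here, and reads shared by near-identical genes, such as the myosins, may be split between them. GENCODE M21 named 36796 genes by identifier and left 58 unnamed. RefSeq promoter windows (GRCm38.p6) were matched for 6 of the 10 members.

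Counts were filtered with filterByExpr and TMM scaled, and edgeR 4.0.16 (R 4.3.3) gave quasi-likelihood F tests with Benjamini-Hochberg adjustment over all genes tested, called below 0.05. The 4 groups of a kind entered 1 fit (17770 genes and 7 members in primary tumours, 17746 and 9 in allografts), the mean difference of the kinds and the interaction used all 48 tumours (19327 genes), and the untreated comparison used 12 tumours (17357 genes). Correlations used log2(CPM + 0.5) with permutation tests (Python 3.11.15, scipy 1.17.1). Alternatives were DESeq2 1.42.0 (tests and size factors), no filter, other scores, the adult muscle score, Xist or the identifier digit as a term, a fit of all 48 tumours, and leaving out tumours. The fits were tested on simulated data.

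Counts of each of the 136 pairs of tumours within groups differed beyond sampling noise (chi-square over its degrees of freedom 85.6 to 995), so each tumour counts once. Groups come from the labels, and the replicates are separate tumours by their labels. The named genes are the 10 members, up to 4 genes per list and comparison with the smallest p, and for members with at least 0.5 CPM on average the genes of highest r. The members and lists were chosen with earlier results of these data known. There were 0 columns of other samples and 0 entries naming no gene.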

Additional observations from a re-analysis of the deposited data

Results flagged for a closer look

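Of 72 sets of 4 or 8 values (9 members in 8 groups), 3 held a tumour whose distance from its nearest neighbour was large against the range of its group on the log2(CPM + 0.5) scale, where chance gives about 1 in 20. These 3 were primary tumours at 0 Gy. Mymk was 1.69 CPM in replicate 7 of the isotype group, with the next value at 0.144 CPM. Chrng was 1.66 CPM in replicate 5 of the anti-PD-1 group, with the next at 0.389 CPM. Pax7 was 0.166 CPM in replicate 2 of the anti-PD-1 group, with the next at 0.0693 CPM, which is a matter of a few counts. The number depends on the scale: on CPM themselves 20 of the 72 sets held such a tumour, at both doses, among them Myh3 in the primary 20 Gy anti-PD-1 group, at 118.8 CPM in replicate 3 with the next at 18.8 CPM.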

How the results depend on the processing

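No paired analysis was made, because each tumour has its own animal identifier in the labels and belongs to a single group. The replicate numbers used here only name tumours. The count of members lower in primary tumours (9) was 1 with the identifier digit as a term, 0 in digit 4 tumours (Pax7 0.24 and Myf6 0.19, of opposite sign) and 2 in digit 5 tumours, and 7 to 9 in 17 fits that each left out 1 allograft or replicate 3 of the primary 20 Gy anti-PD-1 group; the other 31 primary tumours were not left out there. In untreated tumours (0) it was 4 by DESeq2, 1 without the filter, 1 in the fit of 48 tumours and 0 to 2 without single tumours. For 20 Gy in primary tumours with anti-PD-1 (2) it was 7 by DESeq2, 4 without the filter, 8 in the fit of 48 tumours and 0 to 6 without single tumours; for both treatments against neither (2) it was 6, 4, 5 and 0 to 5, and 1 with the adult muscle score. The adult muscle score as a term gave 1 in allografts for isotype, for both treatments and for the average of the antibodies (0 without it), 2 for that average in primary tumours (6), and 4, 1 and 1 for the kinds at 0 Gy anti-PD-1 (2), 20 Gy isotype (0) and 20 Gy anti-PD-1 (0). The allograft slopes (6) gave 0 with the slow score and 4 to 8 without single tumours, and the primary slopes 7 to 7. The other dose and antibody counts within a kind were 0 to 0 without single tumours, and the interaction 0 to 0 in the same 17 fits. The average over antibodies in primary tumours was 4 without replicate 3 of the 20 Gy anti-PD-1 group, the only tumour left out there, and in allografts none was left out. Without single tumours, Myf6 ranged from -1.57 to 0.26 for anti-PD-1 in allografts at 0 Gy, positive without replicate 3 of the isotype group. Myog ranged from -0.53 to 1.61 and Myh3 from -0.12 to 1.22 for 20 Gy with isotype, negative without replicate 1 of the 20 Gy isotype group, and the sign also turned for Myh8 (-1.18) in the interaction with the adult muscle score. Of the member values compared one by one under other settings, 2269 kept direction and side of the threshold, 47 gained and 61 lost a call, and 6 changed sign; most members in the antibody and allograft dose comparisons were not among these. Over every comparison, out of 3449 member values, 47 changed sign in antibody comparisons, 54 in allograft dose comparisons and 7 in the others, and 2 of these belonged to a called difference (Pax7 and Myf6 in digit 4 tumours). The causes were not tested. The identifier digit as a term could not be fitted in the untreated comparison of the kinds, where it follows the kind. Depth limits Pax3, Pax7 and Myf5, often at a few counts per tumour.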
